A study of Mus musculus with 4 samples.

Results

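Pericyte-type cells of the mouse molar tooth region were selected by their UMIs, the unique molecular identifiers that count single mRNA molecules in droplet single-cell RNA-seq. A cell barcode was a member where it held at least 4 UMIs over Rgs5, Kcnj8, Abcc9 and Notch3 from at least 2 of these 4 genes, at least 1 UMI of Pdgfrb, and no UMI of the endothelial genes Pecam1 and Cdh5, of the leukocyte gene Ptprc or of the epithelial gene Epcam. The rule was applied to barcodes with at least 1000 UMIs and under 10% mitochondrial UMIs. It found 1404 members among 42164 barcodes within these limits (3.33%), out of 56940 barcodes deposited. The genes of the rule were measured values of these cells, so their levels in the members are a description and not a finding.

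The study profiled 4 libraries of wild-type mice (genotype label WTB6), 1 for each stage and jaw: maxillary and mandibular molar tooth organs at embryonic stage E15.5 (written as E15 in the titles) and at postnatal stage P1 (P0/P1 in the protocol). Each library held 6 tooth organs pooled, cut and dissociated enzymatically, with no sort. The files hold 10885, 7947, 18707 and 19401 barcodes, with 109723360, 86659227, 128812956 and 139873101 UMIs, in the order E15.5 maxillary, E15.5 mandibular, P1 maxillary and P1 mandibular. Where 4 values stand in a row below, they follow that order. With 1 library per stage and jaw there were no replicates within a group, and no test was run. Intervals are exact 95% intervals that cover counting error only, and differences between animals cannot be told apart from differences between stages or jaws.

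Pericytes are the mural cells of capillaries and small vessels: they sit within the basement membrane that they share with the endothelium and depend on platelet-derived growth factor from endothelial cells, received by Pdgfrb. They are known for an ATP-sensitive potassium channel built from Kcnj8 and Abcc9, for Notch3 signalling and for Rgs5, a GTPase-activating protein that shortens G protein signalling. In the developing tooth, vessels reach the dental papilla and follicle while the crown forms. Vascular smooth muscle cells, the mural cells of larger vessels, share many of these genes and add a contractile apparatus.

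The P1 libraries shared 7131 barcodes, whereas other pairs of libraries shared between 28 and 70. Of the 7131, 556 met the rule by their maxillary and 49 by their mandibular counts, 39 of them by both. The rule dropped shared barcodes from the P1 mandibular library, which removed these 49 there, and kept the 556 among the 645 P1 maxillary members. The 556 barcodes held a median of 4.20 times as many UMIs in the maxillary as in the mandibular library (5th to 95th percentile 4.03 to 4.52). The ratio was thus nearly the same for all of them, and whether a shared barcode held a cell of the maxillary or of the mandibular molars cannot be told apart. Without the shared barcodes the P1 maxillary library held 89 members, which were 0.931% (0.748 to 1.14) of its unshared barcodes within the limits. Most counts of genes that rest on the P1 libraries, and the levels of most genes named for a difference between stages or jaws, are given below with and without them. Where a count or a gene has 1 set of values only, shared barcodes are included. The 257 barcodes that met the positive part of the rule and held an endothelial UMI were dropped by it, as were 104 with a UMI of Ptprc or Epcam.

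The members numbered 202, 141, 645 and 416, or 2.09% (95% interval 1.81 to 2.39), 2.14%, 3.91% and 4.42% of the barcodes within the limits. Their median depth was 12266, 14213, 12794 and 14533 UMIs, against 9841, 11613, 4186 and 10864 for all barcodes within the limits. The P1 maxillary members were thus much deeper than the barcodes they were drawn from, and a rule that counts UMIs admits deep barcodes more readily. At the limit of the rule, 278 members held exactly 4 UMIs of the 4 genes, and 351 barcodes that met every other condition held 3. A UMI of Rgs5 was found in 38.2%, 18.5%, 9.92% and 5.81% of the barcodes just inside and in 33.3%, 12%, 13.4% and 5.05% of those just outside. Pdgfra, a receptor of fibroblast-like mesenchyme, was found in 73.5%, 81.5%, 85.5% and 81.4% of those just inside and in 84.6%, 84.0%, 87.9% and 87.9% of those just outside.

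The data went against the label for most members. No UMI of Rgs5 was found in 895 of the 1404 members (63.7%), and this share was 26.2%, 41.8%, 71.6% and 77.2% over the libraries. In contrast, 283 members (20.2%) held Rgs5 at 1000 counts per 1000000 UMIs (CPM) or more, that is at least 0.1% of the cell's UMIs, and are called Rgs5-high below. There were 63, 36, 119 and 65 of them. The other 1121 are called Rgs5-low and numbered 139, 105, 526 and 351. Of the 89 unshared P1 maxillary members, 63 were Rgs5-high and 26 Rgs5-low, and 5.62% (1.85 to 12.6) lacked a Rgs5 UMI, so that the large share without Rgs5 in that library stood in its shared barcodes. The limit was set after the distribution was seen, and 146 members lay between 500 and 2000 CPM, of which 60 and 28 were from the E15.5 maxillary and mandibular libraries, where the 2 groups merged most.

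**Figure D1:**
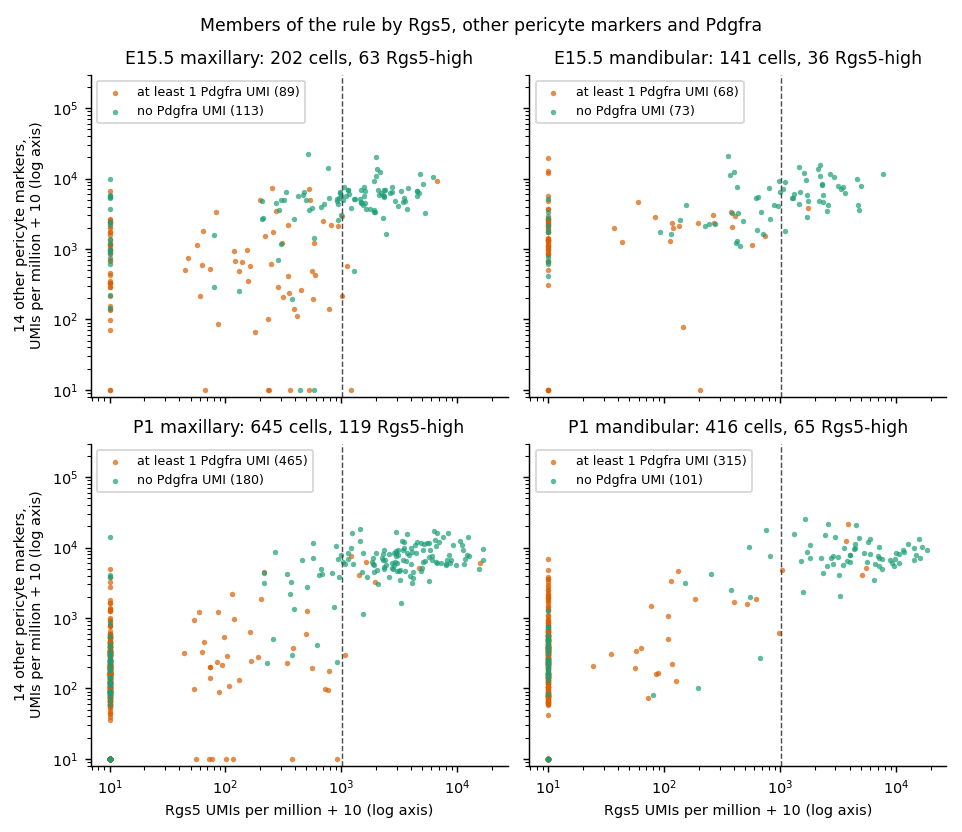
Each point is a member, 1 panel per library, with its Rgs5 level (horizontal log axis) and its summed level of 14 other pericyte markers (vertical log axis), both in CPM of the cell plus 10, and coloured by whether it held a Pdgfra UMI; the dashed line is the limit of 1000 CPM. The members to the right of it mostly lack Pdgfra and lie high on the other markers, while the column at the left edge holds the 895 members without a Rgs5 UMI, most of both P1 libraries.

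Genes outside the rule parted the groups in the same way. A Pdgfra UMI was found in 7.94%, 2.78%, 5.88% and 7.69% of the Rgs5-high and in 60.4%, 63.8%, 87.1% and 88.3% of the Rgs5-low members. Of the 26 unshared P1 maxillary Rgs5-low members it was found in 15.4% (4.36 to 34.9). The summed level of the 14 other pericyte markers that the split did not use had a median of 5650, 6717, 6682 and 7538 CPM in the Rgs5-high and of 1143, 2031, 137 and 247 CPM in the Rgs5-low members. The 26 unshared P1 maxillary Rgs5-low members had a median of 4021 CPM (quartiles 1531 and 6896), above those of both E15.5 libraries. The low level at P1 was thus that of the shared barcodes and of the mandibular library, and all these medians lay below those of the Rgs5-high members. The summed fibroblast-like markers Pdgfra, Col1a1, Lum and Dcn reached 656, 517, 526 and 770 CPM in the Rgs5-high members, with Col1a1 the most abundant, against 4364 to 7015 CPM over the libraries in the Rgs5-low members and 506, 367, 530 and 1026 CPM in leukocytes, which should lack them. The name pericyte was therefore kept for neither group as a whole, and the Rgs5-high members, which carried the pericyte markers, are described first. They were 0.651%, 0.547%, 0.722% and 0.690% of the barcodes within the limits, so that their share was similar in all 4 libraries, with intervals from 0.501 to 0.832% in the first, and they were 0.659% of the unshared P1 maxillary barcodes.

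In all, 3 classes of the same libraries serve as background. Pdgfra-positive mesenchyme had at least 2 Pdgfra UMIs (5902 cells). Endothelial cells had at least 3 UMIs of Pecam1 and Cdh5 with both present (935 cells). Mesenchyme and endothelial cells were also limited to at most 1 UMI of the 4 mural genes. Leukocytes had at least 2 Ptprc UMIs (1084 cells). A level is the summed UMIs of a gene over the cells of a group per 1000000 of their summed UMIs, also written as CPM. A gene is written to be higher or lower only where the ratio was at least 2-fold with the interval on the same side in every pair of libraries compared, among genes with a mean of at least 20 CPM. Of 7054 such genes, 221 (3.13%) were higher in the Rgs5-high members than in both mesenchyme and endothelium in all 4 libraries, a contrast that the rule used and that is described only. Without shared barcodes 197 were, of which 189 were among the 221, and the number of higher genes in each list described below changed by at most 2.

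The 5 genes of the rule are given first. Rgs5 was at 2457 (2341 to 2577), 2478 (2334 to 2629), 5117 (4959 to 5278) and 6743 (6528 to 6964) CPM in the Rgs5-high members and at most 2.66 CPM in mesenchyme or endothelium. Pdgfrb, the receptor through which endothelial cells recruit pericytes, was at 442, 429, 598 and 688 CPM. Notch3, a receptor for endothelial ligands, was at 451, 547, 595 and 770 CPM. Kcnj8, the pore of the potassium channel, was at 281, 242, 364 and 397 CPM, and Abcc9, its sulfonylurea receptor subunit, at 591, 755, 775 and 1022 CPM. Kcnj8 (chr6:142564837-142571614, minus strand, GRCm38) and Abcc9 (chr6:142587862-142702315, minus strand) are neighbours with 16247 bases between them. Rgs5 lies at chr1:169655501-169695813 on the plus strand and Notch3 at chr17:32120820-32166852 on the minus strand. For each of the 5 genes the P1 libraries were above the E15.5 library of the same jaw. The unshared P1 maxillary cells held Rgs5 at 3738, Pdgfrb at 702, Notch3 at 557, Kcnj8 at 467 and Abcc9 at 873 CPM, also above the E15.5 maxillary library.

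Of the pericyte markers outside the rule, 15 of 17 could be compared and 11 were higher than in both classes. Their summed level was 6168, 7121, 7436 and 8224 CPM in the Rgs5-high members and at most 1044 CPM in mesenchyme, so the libraries lay close together and far from that class. Ebf1, a transcription factor of mural and other stromal cells, was the most abundant at 2329, 2804, 3325 and 3968 CPM. Higd1b, a small mitochondrial protein of the hypoxia-inducible family, was at 145 (118 to 176), 70.0 (47.6 to 99.4), 162 (135 to 193) and 242 (203 to 287) CPM. A Higd1b UMI was found in 49.2%, 38.9%, 34.5% and 44.6% of the Rgs5-high members (median depth 10047, 11246, 4852 and 7639 UMIs). In leukocytes, which should lack it, the share ran from 0 to 0.554% (median depth from 3322 to 13915 UMIs over the libraries). The E15.5 mandibular library was the lowest for Higd1b, and its interval lay below those of the other 3.

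Of 18 genes of ion channels and cGMP signalling, 12 could be compared and 10 were higher than in both classes. The nitric oxide receptor is soluble guanylyl cyclase, made of Gucy1a1 and Gucy1b1, which makes the relaxing messenger cGMP. Gucy1a1 was at 676, 829, 738 and 772 CPM and Gucy1b1 at 327, 438, 354 and 361 CPM. Prkg1, the kinase that cGMP activates, was at 2076, 3282, 2554 and 3058 CPM, and Mrvi1, a substrate of that kinase at the calcium store and not in that list, at 122, 242, 241 and 255 CPM. Pde3a, a phosphodiesterase that cGMP inhibits, was at 713, 1127, 734 and 941 CPM. With shared barcodes included, the E15.5 mandibular library was the highest of the 4 for Gucy1a1, Gucy1b1, Prkg1 and Pde3a, and the E15.5 maxillary library was the lowest for all 5 genes. The unshared P1 maxillary cells held Gucy1a1 at 938 CPM, above the E15.5 mandibular library, and Gucy1b1 at 401 CPM, below it.

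**Figure D2:**
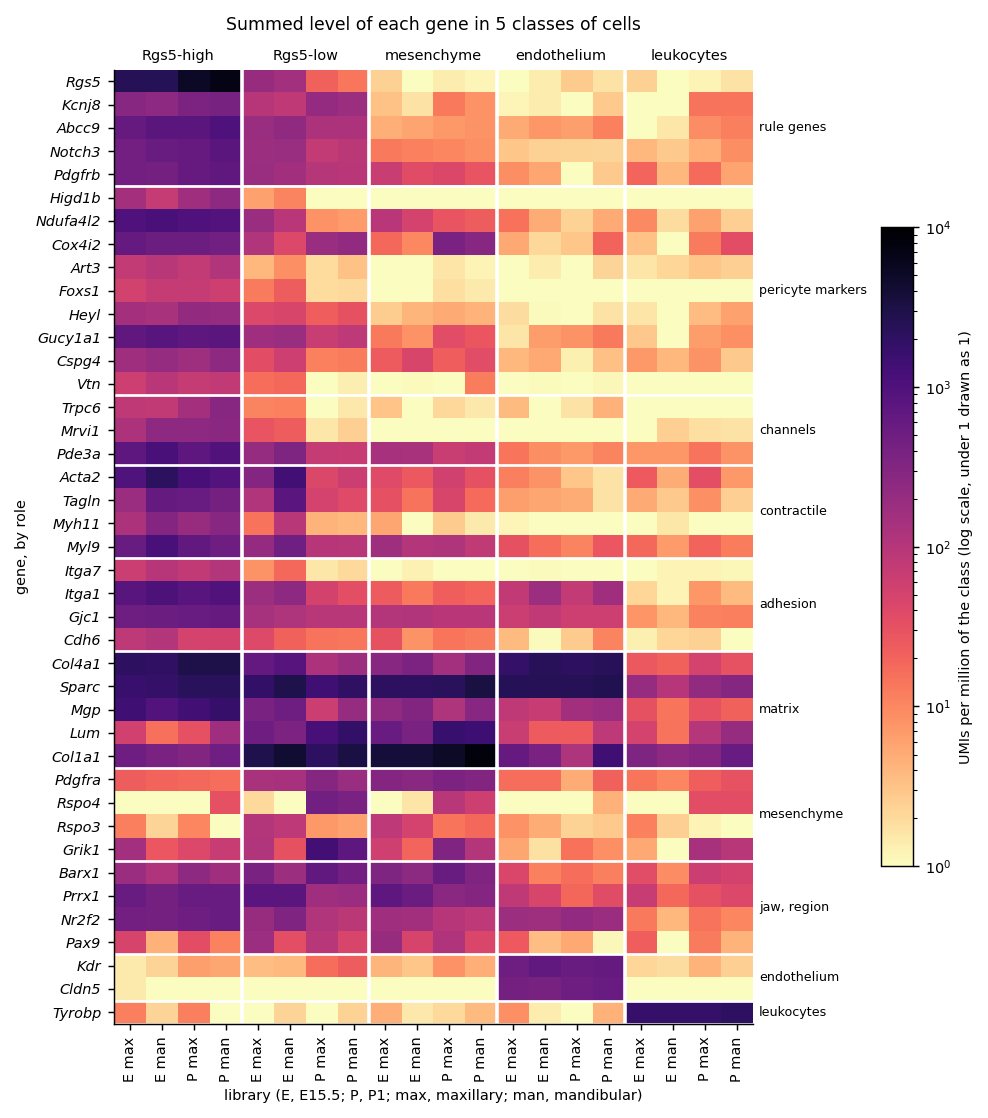
Heat map of the level (CPM of the class, log colour scale, values under 1 drawn as 1) of genes grouped by role (rows) in 5 classes of cells, with 4 libraries per class (columns). The genes of the rule, the other pericyte markers and the contractile genes are mostly darkest in the Rgs5-high columns, Col1a1, Pdgfra and, at P1, Rspo4 in the Rgs5-low and mesenchyme columns, and Kdr, Cldn5 and Tyrobp are dark in endothelium or leukocytes only. Genes outside the naming rule were picked for display.

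Of the Notch pathway, 11 of 15 genes could be compared and 4 were higher. Heyl, a transcriptional target of Notch3, was at 148, 133, 214 and 200 CPM against at most 5.21 CPM in mesenchyme and 1.85 in endothelium. The ligand Jag1 was at 76.8, 83.6, 106 and 155 CPM and was also called higher. Notch1, at 86.9, 115, 133 and 162 CPM, was about as high in endothelium (112, 143, 133 and 134 CPM), and Hes1, a target found in most cells, was at 201, 208, 191 and 213 CPM against 138, 118, 164 and 138 in mesenchyme. Of the platelet-derived growth factor genes, the ligand gene Pdgfa was higher in the Rgs5-high members, at 139, 201, 118 and 146 CPM, while the receptor gene Pdgfra was at 23.2, 20.3, 18 and 16.4 CPM, against 14.1, 10.2, 22.4 and 30.1 in leukocytes, which should lack it.

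Of 20 transcription factors linked to mural cells, 13 could be compared and 6 were higher. Foxs1, named among the genes with the largest ratio to both classes, was at 53.6, 70.0, 72.1 and 60.1 CPM. Epas1, the hypoxia-inducible factor of vessel cells, was at 145, 221, 290 and 410 CPM and stood at like levels in endothelium (167, 164, 285 and 310 CPM), so that it was not called. Of 14 vessel signals compared, 2 were higher. Ednra, the endothelin receptor of mural cells, was at 375, 355, 417 and 494 CPM. Other genes with the largest ratios included Art3, an ADP-ribosyltransferase (72.4, 94.9, 74.7 and 111 CPM), Rasl12, a small GTPase (106, 165, 106 and 153 CPM), and Itga7, a laminin receptor subunit (63.7, 97.1, 77.3 and 106 CPM). Adap2, at 65.2, 52.0, 92.7 and 118 CPM, stood at like levels in leukocytes in 3 libraries (68.3, 61.1, 97.3 and 58.6 CPM) and above them in the P1 mandibular one.

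The mitochondrial paralogue pairs were a case in which a tissue-restricted subunit took much of the pair's UMIs. Ndufa4l2, the hypoxia-inducible paralogue of the respiratory chain subunit Ndufa4, held 90.9% (88.6 to 92.8), 85.7% (82.6 to 88.4), 87.8% (85.5 to 89.9) and 91.4% (88.7 to 93.6) of the UMIs of the pair in the Rgs5-high members. It held 17.5%, 7.76%, 5.64% and 4.83% in mesenchyme and between 0.433 and 2.14% in endothelium. Higd1b held 59.2%, 42.5%, 68.5% and 81.1% of the pair with Higd1a in the Rgs5-high members and at most 0.65% in mesenchyme. Cox4i2, the paralogue of the cytochrome oxidase subunit Cox4i1 that is favoured at low oxygen, held 33.7%, 29.0%, 29.6% and 29.6% in the Rgs5-high members. In mesenchyme it held 2.04% and 1.12% at E15.5 but 30.3% and 24.2% at P1. The P1 maxillary mesenchyme thus matched the Rgs5-high members for this pair and not for the others. In the P1 mandibular library the interval of mesenchyme (23.7 to 24.8) lay below that of the Rgs5-high members (26.5 to 32.7). Among unshared barcodes of the P1 maxillary library, however, Cox4i2 held 4.91% (3.88 to 6.13) in mesenchyme and 37.7% (32.7 to 43.0) in the Rgs5-high members. Ndufa4l2 held 22.2% and 91.0% there. The match for Cox4i2 thus stood in the shared barcodes. The level of Cox4i2 in mesenchyme was 18, 9.79, 378 and 282 CPM, against 610, 511, 509 and 463 CPM in the Rgs5-high members. Shares within a pair are compared between groups only, because the subunits differ in length and capture.

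Adhesion and matrix genes set the Rgs5-high members beside their neighbours. Of 14 adhesion and junction genes compared, 4 were higher than in both classes. Itga1, the collagen-binding integrin subunit, was at 829, 1060, 831 and 962 CPM against at most 178 CPM in endothelium. Gjc1, connexin 45, a gap junction protein of mural cells, was at 501, 522, 568 and 588 CPM against at most 111 CPM in mesenchyme, and its 4 libraries lay close together. Cdh6, a cadherin, was at 85.5, 104, 48.9 and 51.0 CPM with shared barcodes included. Of 19 interstitial matrix genes compared, Mgp, an inhibitor of calcification in vessel walls, was the 1 that was higher, at 1427, 926, 1351 and 1721 CPM. None of 15 basement membrane genes was, and Col4a1 stood at 1827, 2292, 2124 and 2315 CPM in endothelium, which makes the same membrane.

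Among the other lists, 2 of 5 G protein regulators were higher than in both classes: Rgs5, which chose the cells, and Rgs4, a close relative (33.3, 36.1, 50.2 and 23.7 CPM). Of 21 genes of transforming growth factor beta and bone morphogenetic protein signalling the 1 called was Bmp5, a ligand (71.0, 176, 60.5 and 80.1 CPM). Of 7 perivascular and progenitor genes it was Thy1, a surface glycoprotein (101, 56.5, 142 and 237 CPM), and of 9 immune signals Ccl11, an eosinophil chemokine (49.3, 56.5, 58.0 and 29.1 CPM). No gene of glycolysis and hypoxia (9 compared), of imprinted and fetal growth genes (19), of immediate early and heat shock genes (14) or of the cell cycle lists (10 each) was called.

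Markers of other cell types were measured in the Rgs5-high members. The 8 endothelial markers summed to 151, 94.9, 164 and 178 CPM, with Esam the most abundant, against 4425 to 5464 in endothelial cells; Pecam1 and Cdh5 were at 0 by the rule. The 5 leukocyte markers summed to 49.3, 11.3, 25.8 and 31.0 CPM against 8942 to 9923 in leukocytes, with Fcer1g the most abundant. The 4 epithelial markers summed to 10.1, 0, 16.7 and 40.1 CPM, the 3 glial ones to 30.4, 4.52, 5.15 and 3.64, the 3 osteoblast ones to 13.0, 13.6, 12.9 and 69.2, the 5 skeletal muscle ones to 10.1, 13.6, 67.0 and 87.4, and the 3 of odontoblasts and ameloblasts to 2.90, 2.26, 39.9 and 175. For the last list leukocytes held 0.267, 0.618, 30.2 and 187 CPM, much the same levels. Haemoglobin mRNA summed to 14395, 28869, 5244 and 936 CPM. However, the 3 cells with the most in each library gave 96.4%, 98.3%, 97.8% and 72.6% of it, and the median cell held 0.0498%, 0.0618%, 0.00336% and 0.0262%. The haemoglobin genes are for that reason not read as changes of the group. Among the barcodes with the highest Scrublet scores were 220 of the 1404 members, 19 of them Rgs5-high, beside 7264 of all 56940 barcodes. The number marked was set in advance from the barcodes per library, so that it is no count of detected doublets.

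Contractile genes were present in a part of the members. Of 21 contractile genes, 18 could be compared in the Rgs5-high members and 13 were higher than in both classes. Acta2, smooth muscle actin, was at 981, 2200, 1209 and 900 CPM, Tagln, an actin-bundling protein, at 184, 624, 571 and 428, and Myh11, smooth muscle myosin, at 122, 298, 197 and 279. The E15.5 mandibular library was the highest for all 3. Cald1 and Tpm2, actin-binding regulators, varied less: Cald1 was at 1698, 1889, 1922 and 1989 CPM and Tpm2 at 684, 953, 698 and 575. The 6 smooth muscle markers summed to 1299, 3181, 2019 and 1644 CPM, so that they moved with the E15.5 mandibular library, and their part in other differences of that library was not tested.

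Cells with at least 5 Acta2 UMIs and at least 2 of Myh11 and Cnn1 were counted as contractile: 17.5% (9.05 to 29.1), 30.6% (16.3 to 48.1), 14.3% (8.55 to 21.9) and 10.8% (4.44 to 20.9) of the Rgs5-high members. The intervals overlapped in all pairs of libraries, and the share was 9.52% (3.58 to 19.6) in the unshared P1 maxillary cells. Over both jaws the share was 22.2% (14.5 to 31.7) at E15.5 and 13.0% (8.54 to 18.8) at P1, or 10.2% (5.52 to 16.7) without shared barcodes. After each cell was thinned to 2000 UMIs, which left out 1 and 20 shallower cells, it was 6.12% and 5.49%. Among all members the share was 12.8% (9.48 to 16.8) at E15.5 and 2.83% (1.92 to 4.01) at P1, and after thinning 2.95% (1.42 to 5.36) and 1.35% (0.738 to 2.25), where the intervals overlapped. At E15.5 the jaws differed beyond counting error: the share was 6.44% (3.47 to 10.8) of the maxillary and 22% of the mandibular members, with intervals that did not overlap, and 0.503% (0.0127 to 2.77) and 6.43% (2.98 to 11.9) after thinning. The E15.5 mandibular library thus carried most of the share at that stage. The difference between stages in the share of contractile Rgs5-high members was thus not detectable at a matched depth.

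**Figure D3:**
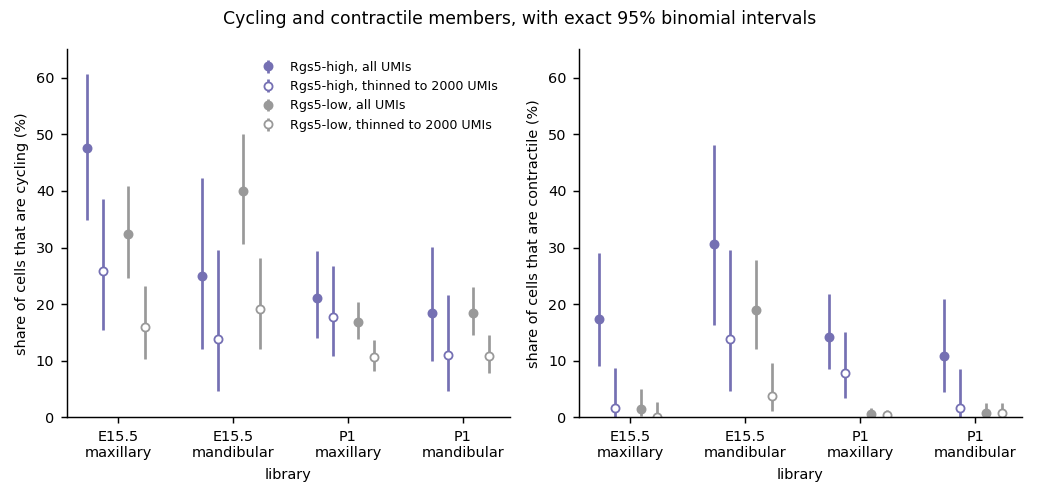
Share of cycling (left) and contractile (right) cells in percent, by library, in Rgs5-high and Rgs5-low members, from all UMIs (filled) and after each cell was thinned to 2000 UMIs (open), with exact 95% binomial intervals. Every open point of the Rgs5-high members lies below its filled one, and the intervals of the open points overlap between libraries.

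The contractile Rgs5-high members held 70 genes at a level at least 2-fold higher, at both stages, than the other Rgs5-high members and 70 at a level at least 2-fold lower, of 7054; Acta2 and Myh11 chose the cells. Myocd, the coactivator of the smooth muscle programme, was at 176 and 86.9 CPM (E15.5 and P1) in the contractile cells and at 14.8 and 5.66 CPM in the others. Eln, elastin, was at 127 and 314 CPM against 21.0 and 22.6. Sox6, a transcription factor, was at 152 and 34.0 CPM against 17.3 and 1.89. Ctnna3, an alpha-catenin of muscle junctions, was at 610 and 367 CPM against 87.7 and 53.7. Runx2, a transcription factor of the osteoblast lineage, was lower in the contractile cells, at 18.6 and 18.9 CPM against 107 and 162. Col25a1, a membrane collagen, was at 30.9 and 11.3 CPM against 161 and 114. The haemoglobin genes were also lower there. In each library 3 Rgs5-high cells held most of the haemoglobin UMIs, as given above, and their part in this difference was not tested. Without shared barcodes 66 genes were higher and 31 were lower, of which 44 and 22 were also called with them. Myocd, Eln, Sox6, Ctnna3, Runx2 and Col25a1 were among these, with Myocd at 165 CPM in the contractile and at 9.21 in the other P1 cells.

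The smooth muscle programme is known to act through the CArG box, the binding site of serum response factor, and Notch through the letters TGGGAA of its DNA-binding partner Rbpj. Both were searched on both strands in the 250 bases before each gene's start, in RefSeq promoters of build GRCm38.p6. A CArG box was found in 2 of the 17 contractile genes with a promoter entry (11.8%) and in 439 of all 27025 genes (1.62%). They are shown because the contractile genes split the Rgs5-high members, with the motif in capitals and 10 bases on each side, 5′ to 3′ on the strand of the gene. The first lies 161 bases before the start of Myl9 (chr2:156775293-156775322, plus strand), the regulatory light chain at 553, 1130, 650 and 501 CPM. The other 2 lie 82 and 62 bases before the start of Srf, serum response factor itself (chr17:46556225-46556254 and chr17:46556205-46556234, minus strand).
Myl9: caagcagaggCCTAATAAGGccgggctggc
Srf, distal: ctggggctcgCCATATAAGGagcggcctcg
Srf, proximal: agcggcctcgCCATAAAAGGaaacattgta
TGGGAA was found in 3 of 12 Notch pathway genes (25.0%) and in 24.1% of all genes, so that the share was that of any promoter. An example is Hey2, 207 bases before the start (chr10:30842975-30843000, minus strand), where the letters stand on the other strand.
Hey2: cgcggtggcaTTCCCAcgcctctgcc
A match of letters is a description and no evidence of binding, and no binding was measured here.

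Cycling cells, with at least 3 UMIs of G2/M genes from at least 2 of them, were 47.6% (34.9 to 60.6), 25.0% (12.1 to 42.2), 21.0% (14.1 to 29.4) and 18.5% (9.92 to 30.0) of the Rgs5-high members, and 20.6% (11.5 to 32.7) of the unshared P1 maxillary ones, so that only the E15.5 maxillary library stood apart from both P1 libraries by its interval. Over both jaws they were 39.4% (29.7 to 49.7) at E15.5 and 20.1% (14.6 to 26.6) at P1. Thinned to 2000 UMIs, the shares were 21.4% (13.8 to 30.9) and 15.2% (10.1 to 21.7), with overlapping intervals. Of 10 G2/M genes, none was called between stages in the Rgs5-high members. Of 10 S phase genes, Mcm4, a subunit of the replication helicase, was lower at P1 (76.8, 58.7, 30.9 and 25.5 CPM), but at 40.1 CPM in the unshared P1 maxillary cells it was not called. Among all members, the cycling share was 36.7% (31.6 to 42.1) at E15.5 and 18% (15.7 to 20.4) at P1, and 18.6% (14.6 to 23.1) and 11.4% (9.57 to 13.5) after thinning, where the intervals did not overlap. In the unshared P1 maxillary members the share before thinning was 25.8% (17.1 to 36.2). This interval overlapped that of the E15.5 maxillary members (30.5 to 44.2).

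The comparison of stages was made within each jaw, P1 against E15.5. Among the Rgs5-high members, 128 of 7054 genes (1.81%) were higher at P1 in both jaws and 37 (0.525%) were lower. The median log2 ratio over all genes was -0.03 in the maxillary and 0.07 in the mandibular pair. Without shared barcodes, 46 were higher and 15 were lower, of which 32 and 9 were also called with them. In that comparison the P1 maxillary Rgs5-high members were the 63 whose barcode was not in the P1 mandibular library. They held 199326 UMIs, with a median of 2931 per cell, against 776453 UMIs in all 119, and whether the calls were lost by the smaller number of UMIs or by the choice of cells was not tested.

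Rgs5 itself was higher at P1, by 1.06 (0.98 to 1.14) and 1.44 (1.35 to 1.54) on the log2 scale in the maxillary and mandibular pair, but the cells were chosen by it. Rgs3, another regulator of G protein signalling, was at 43.5, 61.0, 94.0 and 133 CPM, with log2 ratios of 1.11 and 1.12, and at 100 CPM in the unshared P1 maxillary cells, where it was called as well. Rgs5 stood at 3738 CPM in those cells and was below the 2-fold limit (log2 0.61). Of the pericyte markers outside the rule, none of 15 was called in either direction, with median log2 ratios of 0.16 and -0.10. Of 18 contractile genes only Myocd was called, lower at P1 (29.0, 111, 12.9 and 34.6 CPM; log2 -1.17 and -1.68). From 3 UMIs, Myocd was at 15.1 CPM in the unshared P1 maxillary cells and not called. Without shared barcodes 1 of the 15 pericyte markers, P2ry14, was higher at P1 and 1 contractile gene, Casq2, was lower, both picked after their values were seen. Most markers of these cells thus differed between stages by less than 2-fold, or in 1 jaw only.

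Genes of bone morphogenetic protein signalling included 4 of 21 that were higher at P1 and none that was lower. Smad6, which blocks that pathway from within the cell, was at 4.35 (0.896 to 12.7), 6.78 (1.40 to 19.8), 72.1 (54.5 to 93.7) and 149 (119 to 185) CPM, and the intervals of the stages did not overlap. Its log2 ratios were 4.05 (2.43 to 6.37) and 4.46 (2.86 to 6.77). In the unshared P1 maxillary cells Smad6 was at 35.1 CPM from 7 UMIs and still called, and in mesenchyme it also differed between stages (log2 2.71 and 2.58). Smad7, an inhibitor shared with the transforming growth factor beta pathway, was at 30.4, 27.1, 78.6 and 87.4 CPM (log2 1.37 and 1.69). Id1, a direct target gene, was at 107, 88.1, 234 and 180 CPM (log2 1.13 and 1.03). Acvrl1, a receptor best known from endothelium, was at 18.8, 20.3, 50.2 and 45.5 CPM. Id3, a further target, was at 413, 341, 630 and 648 CPM and below the 2-fold limit. The unshared P1 maxillary cells held Smad7 at 20.1 CPM from 4 UMIs and Acvrl1 at 15.1 CPM from 3, both below the E15.5 maxillary library, and Id1 was at 140 CPM, above it by less than 2-fold. Without shared barcodes Smad6 was thus the 1 gene of the list that was called.

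Of 15 basement membrane genes compared, 3 were higher and 1 was lower at P1, with median log2 ratios of 0.22 and 0.50. Col18a1, the collagen that carries endostatin, was at 82.6 (62.5 to 107), 102 (74.2 to 136), 299 (262 to 340) and 315 (270 to 366) CPM, with log2 ratios of 1.86 (1.43 to 2.30) and 1.63 (1.15 to 2.14). Both P1 libraries were well above both E15.5 libraries. In mesenchyme its log2 ratios were -0.82 and -0.22, and in the unshared P1 maxillary cells it stood lower, at 130 CPM. Lamc3, a laminin chain, was at 14.5, 4.52, 67.0 and 81.9 CPM (log2 2.21 and 4.18), and Lamb2, a chain of vascular laminins, at 20.3, 27.1, 42.5 and 63.7 CPM. Col15a1, a collagen close to Col18a1 in build, moved the other way, at 73.9, 160, 34.8 and 67.4 CPM (log2 -1.09 and -1.25). Col4a1 and Col4a2, the main chains of the membrane, were not called: Col4a1 was at 2093, 2044, 2971 and 2957 CPM and Col4a2 at 1034, 987, 1445 and 1677. Among unshared P1 maxillary cells Lamc3 was at 10.0 CPM from 2 UMIs, below the E15.5 maxillary library, Lamb2 at 35.1 and Col15a1 at 25.1 CPM. Without shared barcodes Col15a1 was still lower at P1, and Col18a1, Lamc3 and Lamb2 were not called. None of 19 genes of the interstitial matrix was called.

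**Figure D4:**
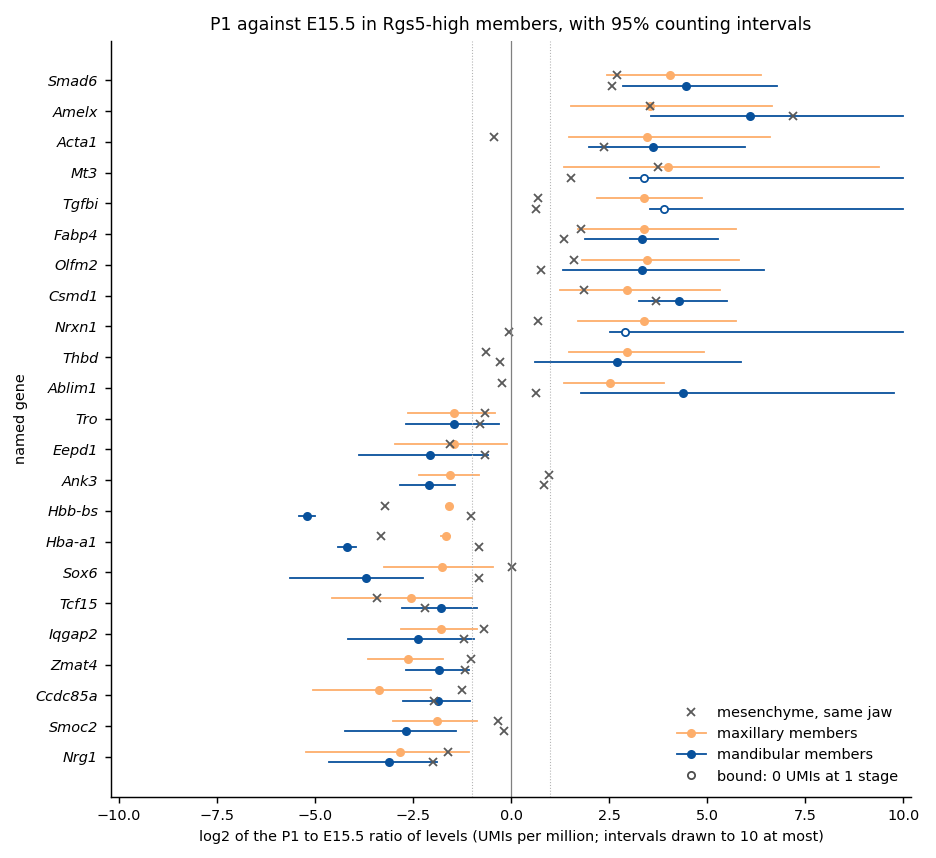
Log2 ratio of P1 to E15.5 levels in Rgs5-high members (horizontal axis) for genes with the largest ratios in each direction, by jaw, with exact 95% intervals drawn to 10 at most; open circles are bounds where 1 stage had 0 UMIs, crosses are mesenchyme of the same jaw and dotted lines mark 2-fold. Smad6 and Nrg1 lie on the same side in mesenchyme (2.71 and 2.58; -1.60 and -2.0), and Ank3 lies on the other (0.98 and 0.84).

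Among channels and second messengers, 1 of 12 genes was higher at P1. Pde4d, a phosphodiesterase that degrades cAMP, was at 98.5, 88.1, 335 and 768 CPM (log2 1.77 and 3.12) and differed likewise in mesenchyme (1.87 and 2.29). Foxf1, a forkhead factor of mesenchyme and vessel walls, was the 1 of 13 mural transcription factors that was higher, at 29.0 (17.7 to 44.7), 15.8 (6.36 to 32.6), 109 (87.4 to 135) and 69.2 (49.0 to 95) CPM. Its log2 ratios were 1.92 and 2.13. Pde4d was at 281 CPM in the unshared P1 maxillary cells and still called, while Foxf1 was at 25.1 CPM there, from 5 UMIs, below the E15.5 maxillary library.

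Immune signals included 4 of 9 genes that were higher at P1 and none that was lower. Cxcl1, a neutrophil chemokine, was at 10.1, 6.78, 42.5 and 83.8 CPM, and Ccl2, a monocyte chemokine, at 18.8, 18.1, 42.5 and 61.9 CPM. Ifitm1, an interferon-induced membrane protein, was at 91.3, 85.8, 225 and 200 CPM. The unshared P1 maxillary cells held Cxcl1 at 5.02 CPM from 1 UMI, Ccl2 at 10.0 CPM from 2 and Ifitm1 at 115 CPM, and none of the 3 was called. Of 14 immediate early and heat shock genes, which can be induced by dissociation, Fos (301, 210, 647 and 634 CPM) and Zfp36 (29.0, 24.9, 107 and 72.8 CPM) were also higher at P1. Zfp36 was at 120 CPM in the unshared P1 maxillary cells and still called, and Fos was at 597 CPM there, just under the 2-fold limit (log2 0.99). Whether dissociation differed between the stages was not tested.

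Other genes with the largest ratios were Tgfbi, a matrix protein induced by transforming growth factor beta (8.69, 0, 90.2 and 100 CPM), Thbd, thrombomodulin (5.79, 4.52, 45.1 and 29.1 CPM), and Fabp4, a fatty acid carrier (4.35, 9.04, 45.1 and 91.1 CPM). Among unshared P1 maxillary cells Tgfbi was at 40.1 CPM from 8 UMIs and still called, Thbd was at 20.1 CPM from 4 UMIs and not called, and Fabp4 and Olfm2 were at 0. Amelx, an enamel protein of ameloblasts, and Acta1, skeletal muscle actin, were called too, but they moved likewise in leukocytes: Amelx was at 0.267, 0.309, 24.8 and 167 CPM there and Acta1 at 3.47, 12, 27.2 and 140 CPM. The unshared P1 maxillary cells held Amelx at 15.1 CPM from 3 UMIs and Acta1 at 0. The calls of both genes follow the level found in cells that should lack them.

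Among the 37 genes lower at P1, Dlk1, an imprinted gene of immature mesenchyme, was at 1418, 2040, 614 and 668 CPM (log2 -1.21 and -1.61). Mest, also imprinted, was at 374, 411, 170 and 157 CPM (log2 -1.14 and -1.39). Of 19 imprinted and fetal growth genes, these 2 were lower, and Igfbp7, a secreted protein of vessel walls, was higher (813, 940, 1815 and 1883 CPM). Igf2 was at 513, 739, 309 and 326 CPM and H19 at 495, 707, 388 and 293 CPM, both below the 2-fold limit in at least 1 jaw. The unshared P1 maxillary cells held Dlk1 at 763, Mest at 226 and Igfbp7 at 1059 CPM, each within 2-fold of the E15.5 maxillary library, so that none of the 3 was called. The median log2 ratio of the list was -0.60 and -0.79, beside medians near 0 over all genes.

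Among the largest ratios downward were those of Nrg1, a ligand of ErbB receptors (27.5, 94.9, 3.86 and 10.9 CPM; log2 -2.83 and -3.12), Smoc2, a secreted calcium-binding matrix protein (52.1, 70.0, 14.2 and 10.9 CPM), and Ccdc85a (66.6, 113, 6.44 and 31.0 CPM). Without the highest Scrublet scores the smaller ratio of Smoc2 turned to 0.76 on the log2 scale. Nrg1 was also lower at P1 in mesenchyme (log2 -1.60 and -2.0). Tcf15, a transcription factor known from heart endothelium and somites, was at 30.4, 88.1, 5.15 and 25.5 CPM in the Rgs5-high members and at 73.0, 151, 23.3 and 68.1 CPM in endothelium. Sox6 was at 30.4, 94.9, 9.02 and 7.28 CPM and Ank3, a membrane anchor, at 79.7, 188, 27.0 and 43.7 CPM. In mesenchyme Ank3 moved the other way (log2 0.98 and 0.84). For these 6 genes the E15.5 mandibular library was the highest, the library with the highest smooth muscle markers, whose part in these ratios was not tested. Without shared barcodes Ccdc85a and Smoc2 were called, each from 1 UMI in the P1 maxillary cells, whereas Nrg1 (10.0 CPM from 2 UMIs), Tcf15 and Sox6 (15.1 CPM from 3 UMIs each) and Ank3 (40.1 CPM) were not.

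The stage comparison was also made over all 1404 members, most of them Rgs5-low. Of 7395 genes, 391 (5.29%) were higher and 330 (4.46%) were lower at P1 in both jaws. Without shared barcodes, 34 were higher and 97 were lower, of which 31 and 81 were also called with them. The calls overlapped in part with those of the Rgs5-high members. Higher in both were 28 genes, 7.16% of the calls over all members and 21.9% of those in the Rgs5-high members. For lower genes the overlap was 13, or 3.94% and 35.1%, and 1 gene was called in opposite directions. These shares lay above those of all genes compared, of which 1.81% were higher and 0.525% were lower in the Rgs5-high members. The Rgs5-high cells are themselves members, so that some overlap was built in. They held fewer UMIs (776453 of 9014661 in the P1 maxillary library), and the part of this in the overlap was not tested. Of the pericyte markers outside the rule, 7 of 10 were lower at P1 over all members and none was higher, whereas none of 15 was called in the Rgs5-high members. Without shared barcodes none of 15 was called over all members either. The share of Rgs5-high cells among the members was 31.2% and 25.5% at E15.5 and 18.4% and 15.6% at P1, but 63 of 89 in the unshared P1 maxillary members.

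The Rgs5-low members were set beside the Pdgfra-positive mesenchyme of the same library. They held 22 of 7395 genes (0.297%) at a higher and 7 (0.0947%) at a lower level in every library. Among the higher genes, Kcnj8, Abcc9, Rgs5 and Notch3 had chosen the cells. Others were Heyl (42.0, 45.7, 22.2 and 30.6 CPM against at most 5.21), Epas1 (19.5, 19, 46.7 and 19.7 against 1.96, 1.50, 13.6 and 5.24), Hey1, a Notch target (35.5, 13.9, 102 and 121 against 7.38, 4.72, 29.2 and 19.1), and Tinagl1, a matrix protein of vessel walls (31.5, 51.3, 2.91 and 3.70 against at most 1.67). Among the lower genes were Nrg1 (240, 155, 30.8 and 13.1 CPM against 852, 770, 281 and 192) and Spp1, osteopontin (6.99, 5.02, 82.9 and 51.6 against 19.5, 258, 305 and 390). Without shared barcodes 22 genes were higher and 5 were lower, of which 12 and 4 were also called with them. Of the genes named here, Heyl (77.2 CPM in the unshared P1 maxillary Rgs5-low members), Epas1 (68.6) and Nrg1 (17.2) were among these. Hey1, at 8.58 CPM from 1 UMI there against 103 in the shared cells, Tinagl1, at 17.2 CPM from 2 UMIs, and Spp1, at 0, were not. These counts ask for a difference in every library. Within E15.5 alone, 116 genes (1.57%) were higher and 15 (0.203%) were lower in both jaws, and within P1 alone 141 (1.91%) and 128 (1.73%), or 53 and 70 without shared barcodes. The smooth muscle markers summed to 427 and 2303 CPM in the E15.5 Rgs5-low members against 78.6 and 44.8 CPM in mesenchyme, and to 103 and 108 against 108 and 54.3 CPM at P1. In the E15.5 mandibular library 19% (12 to 27.9) of the Rgs5-low members were contractile, and in the other 3 at most 1.44%.

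Set beside each other, the Rgs5-high members held 157 of 7395 genes (2.12%) at a higher and 244 (3.30%) at a lower level than the Rgs5-low members in every library. Without shared barcodes 77 were higher and 90 were lower. As the split was by measured values, these are descriptions. Rgs5, which split the cells, was among the higher genes. Lum, a collagen-binding proteoglycan, Gja1, the gap junction protein connexin 43, Col8a2, a collagen of stiff matrices, and Fgf10, a growth factor of dental and other mesenchyme, were among the 10 leading genes of the second. Among the unshared P1 maxillary cells Lum was at 35.1 CPM in the Rgs5-high and 274 in the Rgs5-low members and still called, while Col8a2 (10.0 and 42.9 CPM), Fgf10 (0 and 25.7) and Gja1 were not. Gja1 stood the other way there, at 15.1 CPM from 3 UMIs in the Rgs5-high and 8.58 CPM from 1 UMI in the Rgs5-low members.

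Of the list of jaw identity and patterning, 7 of 22 genes were higher and 5 were lower at P1 over all members, and without shared barcodes none of 20 was higher and 1, Pitx1, was lower. Higher ones included Dlx2, Dlx3, Dlx4, Dlx5, Msx2 and Twist2, factors of the jaw and face, and the lower ones were Pitx1, Prrx1, Shox2, Meox2 and Nr2f1. Examples of the latter, with shared barcodes included, were Prrx1 (729, 693, 196 and 211 CPM over all members) and Shox2 (160, 184, 38.2 and 45.1 CPM). Neither was called without them. Some genes known from the dental mesenchyme, picked from those that were higher at P1, are given in the Rgs5-low members. Rspo4, a secreted enhancer of Wnt signalling, was at 2, 0.557, 461 and 387 CPM in the Rgs5-low members and at 0.575, 1.61, 95.9 and 58.8 CPM in mesenchyme. In the Rgs5-high members it was at 0, 0, 0 and 32.8 CPM, and leukocytes held 0, 0, 34.5 and 35.2, so that the 1 value above 0 was at the level of cells that should lack the gene. The shared barcodes of the P1 maxillary library carried most of it: Rspo4 was at 467 CPM in shared and at 51.5 CPM, from 6 UMIs, in unshared Rgs5-low members. Msx2, a homeobox factor of dental mesenchyme, was at 2.50, 5.02, 199 and 150 CPM, and Dlx3, Dlx4 and Sp6, further factors of tooth formation, were likewise near 0 at E15.5 (Dlx3 6.99 and 3.90; Dlx4 0.999 and 2.79; Sp6 0 and 0 CPM) and between 67.9 and 170 at P1. Fgf3, a growth factor of the dental papilla, was at 0, 0, 62.8 and 52.8 CPM. Grik1, a glutamate receptor subunit chosen after its values were seen, was at 111, 31.2, 1320 and 724 CPM against 56.8, 19.6, 328 and 107 in mesenchyme. In the unshared P1 maxillary Rgs5-low members Fgf3, Dlx4 and Sp6 were at 0 UMIs (63.7, 119 and 68.8 CPM in the shared ones), Msx2 was at 8.58 CPM from 1 UMI, Dlx3 at 34.3 CPM from 4 and Grik1 at 326 against 1334 CPM. The high levels of these picked genes at P1 were thus those of the shared barcodes and of the mandibular library.

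Genes lower at P1 over all members included Igfbp2, a carrier of insulin-like growth factors (160, 207, 13.3 and 8.15 CPM), Eya1, a transcriptional coactivator of craniofacial mesenchyme (139, 59.5, 13.8 and 6.46 CPM), and Dlk1 (1264, 2123, 165 and 421 CPM). Of 19 imprinted and fetal growth genes, 11 were lower and none was higher. Reln, a secreted glycoprotein, was at 33.8, 59.5, 4.77 and 6.62 CPM over all members but at 85.5, 287, 45.1 and 51.0 CPM in the Rgs5-high members, which had the higher level in every library. Without shared barcodes Eya1 and Reln were still lower at P1 (12.7 CPM each in the unshared P1 maxillary members, from 4 UMIs), while Igfbp2 was at 85.5 CPM and Dlk1 at 769 CPM there and neither was called. Of the 19 imprinted and fetal growth genes, 4 were lower.

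The Wnt pathway was the subject of the study, and of its 63 genes listed here 32 could be compared over all members and 22 in the Rgs5-high members. Over all members, 6 were higher and 4 were lower at P1. Without shared barcodes 1 of 32 was higher, Rspo4, and 3 were lower, Rspo3, Lgr5 and Sfrp2. The balance over all genes turned likewise, from 391 higher and 330 lower to 34 and 97. Without those barcodes Lgr5, a receptor of R-spondins, was at 53.1, 59.0, 0 and 5.54 CPM, and Sfrp2 at 436, 427, 193 and 74.6 CPM. Wif1, a secreted Wnt inhibitor, was at 34.5, 34.4, 472 and 609 CPM and Dkk1, an inhibitor at the receptor, at 8.54, 0.447, 84.9 and 51.2. Rspo3, an enhancer like Rspo4, moved the other way, at 81.7 (71.3 to 93.2), 68.0 (57.6 to 79.7), 7.32 (5.66 to 9.31) and 5.38 (3.75 to 7.49) CPM, with log2 ratios of -3.48 and -3.66. Rspo4 was at 1.49, 0.447, 422 and 357 CPM, with log2 ratios of 8.15 and 9.64. Among unshared P1 maxillary members Wif1 was at 9.50 CPM, below E15.5, Dkk1 at 6.33, Rspo3 at 12.7 and Rspo4 at 19 CPM, so that of these 4 genes Rspo3 and Rspo4 were still called. That level of Rspo4 came from 6 UMIs. It lay below the level given above for P1 maxillary leukocytes, shared barcodes included, which should lack the gene. Over all barcodes the members thus held Rspo3 with little Rspo4 at E15.5 and Rspo4 with little Rspo3 at P1, and mesenchyme moved the same way for Rspo3 (83.9, 50.1, 13.8 and 17.9 CPM).

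In the Rgs5-high members, 2 of 22 Wnt genes were higher at P1 and none was lower. Lef1, a transcription factor and target of the pathway, was at 14.5, 4.52, 36.1 and 45.5 CPM (log2 1.32 and 3.33). Apcdd1, a target gene that feeds back on the receptors, was at 31.9, 11.3, 64.4 and 78.3 CPM (log2 1.01 and 2.79). The E15.5 mandibular library was the lowest for both, and in the unshared P1 maxillary cells Lef1 was at 20.1 CPM from 4 UMIs and Apcdd1 at 35.1 CPM from 7, so that neither was called. The most abundant genes of the pathway were receptors and mediators that were not called: Ror1, a receptor of noncanonical ligands, was at 181, 305, 279 and 424 CPM and Tcf7l2, a transcription factor of the pathway, at 146, 192, 144 and 251. No Wnt gene was higher than in both mesenchyme and endothelium.

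The comparison of jaws was made within each stage, maxillary against mandibular. Of 7054 genes, 16 (0.227%) were higher and 25 (0.354%) were lower in the maxillary Rgs5-high members at both stages. Over all members, 29 of 7395 (0.392%) were higher and 22 (0.297%) were lower, and 5 higher and 2 lower genes were called in both groups. At P1 this comparison rests on a maxillary library in which 56 of the 119 Rgs5-high members and 500 of the 526 Rgs5-low members had a barcode shared with the mandibular one. Without shared barcodes, 22 genes were higher and 21 were lower in the Rgs5-high members, and 22 and 34 over all members. Of these, 10 and 8 in the Rgs5-high members and 6 and 9 over all members were also called with the shared barcodes.

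Of 30 genes of jaw identity and patterning, 13 could be compared in the Rgs5-high members, and Pax9, a paired box factor of dental mesenchyme, was the 1 that was higher in the maxillary cells. It was at 47.8, 4.52, 34.8 and 10.9 CPM in the Rgs5-high members, at 22.4, 0.309, 12.7 and 4.22 in leukocytes and at 196, 48.7, 115 and 45.2 in mesenchyme, so that all groups moved together. Sfrp2, a secreted Wnt modulator, was at 66.6, 11.3, 59.2 and 7.28 CPM in the Rgs5-high members but at 71.5, 29.6, 30.8 and 34.3 in leukocytes. Cntn4, a neuronal adhesion protein, was at 72.4, 6.78, 99.2 and 10.9 CPM, with both maxillary libraries far above both mandibular ones. Pax9 was at 30.1 CPM from 6 UMIs in the unshared P1 maxillary cells and not called, and Sfrp2 at 105 CPM and Cntn4 at 55.2 CPM were still called.

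Among genes lower in the maxillary Rgs5-high members, Kcnab1, a subunit of voltage-gated potassium channels, was at 26.1, 156, 33.5 and 124 CPM, and Adarb2, an RNA-binding protein of the adenosine deaminase family, at 5.79, 99.4, 55.4 and 178. For Kcnab1 both mandibular libraries were above both maxillary ones, while Adarb2 differed between stages as well. In the unshared P1 maxillary cells, however, Kcnab1 was at 120 CPM from 24 UMIs (3.47 CPM in the shared ones), about as high as in the P1 mandibular library, and Adarb2 at 105 CPM, so that neither was called. Tcf15 and Myocd were also lower in the maxillary cells at both stages, but not called at 15.1 CPM each, from 3 UMIs, in the unshared P1 maxillary cells. Over all members, Tfap2b, a factor of facial mesenchyme, was higher in the maxillary cells (212, 32.2, 69.6 and 11.5 CPM) and Igf1, insulin-like growth factor 1, was lower (233, 625, 54.8 and 152 CPM). Tfap2b was at 50.6 CPM in the unshared P1 maxillary members and still called, while Igf1 was at 193 CPM there, above the P1 mandibular ones, so that over all members its difference between the jaws turned direction at P1. Igf1 was at 437 CPM in the unshared Rgs5-low and at 50.2 in the unshared Rgs5-high members. In the Rgs5-high members without shared barcodes it was called lower in the maxillary cells at both stages (34.8, 90.4, 50.2 and 146 CPM). Hand2, known as a mandibular factor, was at 0, 4.52, 0 and 0 CPM in the Rgs5-high members.

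**Figure D5:**
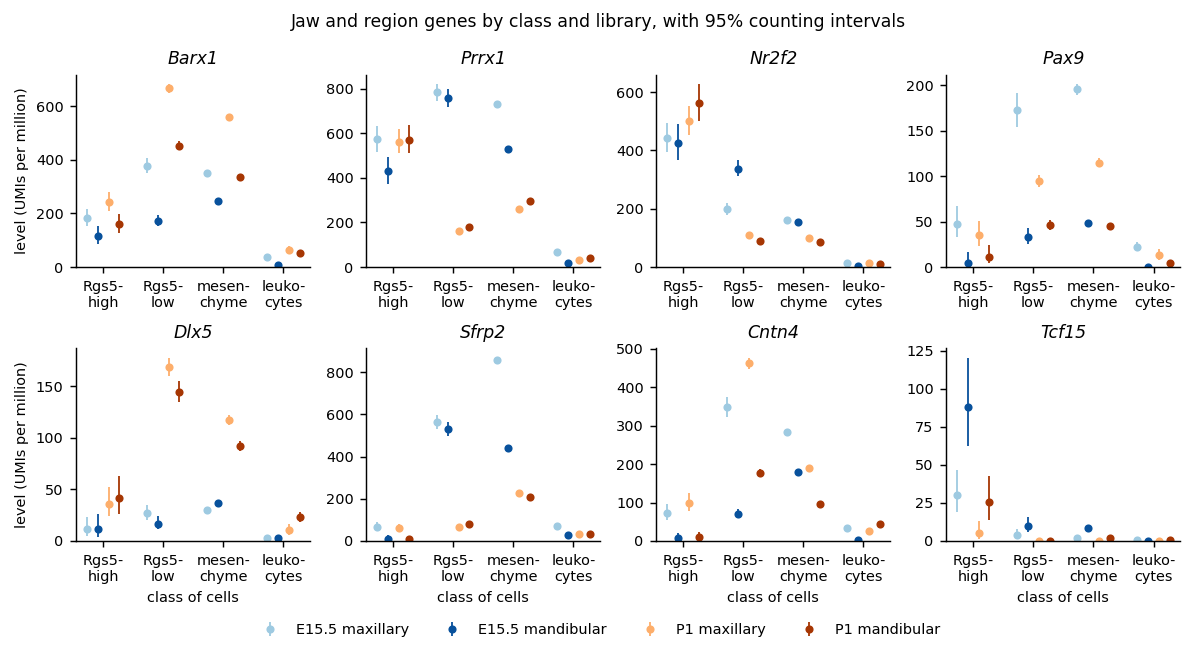
Level (CPM, vertical axis from 0, 1 panel per gene) of jaw and region genes in Rgs5-high members, Rgs5-low members, mesenchyme and leukocytes, 1 point per library with exact 95% counting intervals. Pax9 is higher in the maxillary library of each stage in all 4 classes, and Barx1, Prrx1 and Nr2f2 lie well above leukocytes in the Rgs5-high members, shared barcodes included.

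Other genes of the face's mesenchyme were measured in the Rgs5-high members. Barx1, a homeobox factor of the molar field, was at 183, 115, 241 and 160 CPM and was found in 60.3% (47.2 to 72.4), 47.2% (30.4 to 64.5), 46.2% (37.0 to 55.6) and 46.2% (33.7 to 59.0) of the cells. In leukocytes it was found in 10.3%, 6.93%, 10.9% and 11.9%, at median depths of 9901, 13915, 3322 and 7690 UMIs. In the unshared P1 maxillary Rgs5-high members it was lower, at 75.3 CPM from 15 UMIs, and was found in 15.9% (7.88 to 27.3) of the cells, an interval that holds the share in the P1 maxillary leukocytes, so that Barx1 was not shown to lie above background in those cells. Prrx1, a factor of limb and facial mesenchyme, was at 572, 429, 563 and 572 CPM, against 730, 529, 262 and 297 in mesenchyme, and stood at 572 CPM in the unshared cells as well. Nr2f2, a nuclear receptor of veins and mural cells, was at 443, 425, 501 and 563 CPM and was the 1 gene of the list higher than in both classes. Dlx5, a factor of the lower face and of dental mesenchyme, was at 11.6, 11.3, 36.1 and 41.9 CPM and was higher at P1, though at 20.1 CPM from 4 UMIs in the unshared P1 maxillary cells it was not called.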

How the data were processed

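Single-cell libraries (10x Genomics 3′ chemistry) were made from maxillary and mandibular molar tooth organs at E15.5 and P1, 1 library each. The deposited matrices hold raw UMI counts of 32285 genes per barcode, which the authors made with Cell Ranger (7.0.1 in the file headers) on mm10 with the annotation refdata-gex-mm10-2020-A; for their own analysis they then removed doublets with scDblFinder and outlying cells, steps that the deposited counts do not contain.

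The counts were used as deposited. The members were chosen by the rule given at the start, and the members, gene lists and classes were chosen with earlier results of these data known; the limit for Rgs5-high was added after the values were seen. UMIs were summed per library and group and expressed per 1000000 UMIs (CPM). Genes with a mean of at least 20 CPM were compared, and a gene was called where the ratio was at least 2-fold with an exact 95% binomial interval on the same side in every pair. A count of 0 was set to 3 counts and its ratio read as a bound. Levels carry exact Poisson and shares exact Clopper-Pearson intervals. No test was run, since each group was 1 library.

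Genes named were those of the rule, up to 6 by level and 4 by stage ratio of each of 32 lists, the 12 with the largest stage ratio and 8 with the largest jaw ratio in each direction, the 15 with the largest ratio to both classes, the paralogue pairs, the jaw identity list and 10 in each direction for contractile cells. The leading genes of the Rgs5-low contrasts, Myl9 with its promoter window, Srf and Hey2, and genes shown only in plots were chosen after values were seen. Barcodes with the highest Scrublet scores (scanpy 1.11.5), in a number set in advance per library, were marked and kept, with an alternative without them. Simulated 4-fold changes of 200 genes were recovered for 100% over all members (7395 genes) and for 93% in the Rgs5-high members (7054 genes). These counts were drawn with Poisson error only, so that the recovery does not cover the spread between cells or animals. Alternatives covered the rule's UMI limits, depth, gene filter, shared barcodes, doublet scores and the Rgs5 limit. Python 3.11.15, numpy 2.4.6, scipy 1.17.1 and pandas 2.3.3 were used. Some genes of the stage comparison are not reported here.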

Additional observations from a re-analysis of the deposited data

Results flagged for a closer look

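Among the Rgs5-high members, 18 of 7054 genes differed between the stages by at least 2-fold in opposite directions in the 2 jaws, with the counting intervals on opposite sides of 0; of 267 list genes compared, 3 did. The difference between the jaws was not tested, because each was 1 library per stage, and the P1 maxillary library holds barcodes shared with the mandibular one. Flt1, a decoy receptor for vascular endothelial growth factor, had log2 ratios of P1 to E15.5 of 1.27 in the maxillary and -1.78 in the mandibular cells (30.4, 131, 73.4 and 38.2 CPM). Cdkn1c, an imprinted inhibitor of the cell cycle, had 1.30 and -2.03 (252, 587, 622 and 144 CPM). Sostdc1, a secreted inhibitor of Wnt and bone morphogenetic protein signalling, had -6.45 and 3.01 (225, 2.26, 2.58 and 18.2 CPM), from 155, 1, 2 and 10 UMIs. In the unshared P1 maxillary cells Flt1 was at 145, Cdkn1c at 386 and Sostdc1 at 0 CPM.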

How the results depend on the processing

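Of 214 values of the main results under an alternative, 165 stayed within 1.5 times (counts) or within the interval (shares) and 49 moved. Counts and shares have no direction, so that a reversal could not be recorded for them. Of 495 values of named genes, 387 stayed, 102 moved and 6 reversed. The cause of each move was not tested, apart from thinning and the gene filters, which by construction leave fewer UMIs or other genes. The Rgs5 limits of 500 and 2000 CPM and the use of all alternatives on the Rgs5-high members were added after the data were seen. With 1 library per group no library could be left out. No paired analysis was run, as no result came from a test. Stages were compared within each jaw and jaws within each stage.

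With shared barcodes left out of both P1 libraries, the members numbered 848 (1404 as reported). Genes higher and lower at P1 numbered 34 and 97 over all members (391 and 330) and 46 and 15 in the Rgs5-high members (128 and 37). Genes lower in the maxillary members numbered 34 (22), and genes higher than in both classes 45 (29).

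With cells thinned to 2000 UMIs, genes higher and lower at P1 in the Rgs5-high members numbered 31 and 17, genes higher and lower in the maxillary ones 4 (16) and 12 (25), and genes higher than in both classes 121 (221). Over all members, 219 were lower at P1 and 18 higher in the maxillary cells (29). Contractile shares of the 2 stages were 6.12% and 5.49% in the Rgs5-high members and 2.95% and 1.35% over all members; the cycling shares were 21.4% (E15.5 only) in the Rgs5-high members and 18.6% and 11.4% over all members.

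With genes from 1 CPM on, genes higher and lower at P1 over all members numbered 838 and 682, higher and lower in the maxillary members 83 and 85, higher than in both classes 48, and higher in the maxillary Rgs5-high members 27. From 50 CPM on, the numbers were 226 and 176, and 19 and 10, over all members, and 56 and 15, and 0 and 8, in the Rgs5-high members.

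With at least 8 marker UMIs from 3 genes, 503 members were left, with 108 genes higher than in both classes, 185 lower at P1 and 14 lower in the maxillary cells, and contractile shares of 17.1% (12.8%) and 7.32% (2.83%). With at least 2 UMIs, 17 genes were higher than in both classes and the contractile share at E15.5 was 7.61%. With means of per-cell levels, which have no interval, 58 genes were higher than in both classes over all members; in the Rgs5-high members 62 were lower at P1, and 49 were higher and 62 lower in the maxillary cells. With the Rgs5 limit at 500 CPM, 29 were higher in the maxillary Rgs5-high members. Without the highest Scrublet scores, the P1 cycling share was 14.9% (18%).

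Among named genes, the smaller stage ratio (log2) reversed at a Rgs5 limit of 2000 CPM for Hba-a1 (1.72; -1.67 as reported) and Hbb-bs (0.16; -1.58), at 8 marker UMIs for Itgbl1 (3.25; -3.10), without shared barcodes for Meis2 (0.89; -2.74) and Nxph1 (0.74; -3.19), and without the highest Scrublet scores for Smoc2 (0.76; -1.88).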
